A study of Mus musculus with 6 samples.

Results

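The interferon response genes described here are Ddx58, Stat2, Irf9, Ifi35, Isg15, Oasl1, Oasl2, Ifitm3 and Cxcl10, taken by symbol from a table of gene expression in mouse embryonic stem cells (ESCs). All 9 were found among the 13743 entries of the table. By their labels, the cells of every group, controls included, are Dgcr8-/- on a C57/129 background; Dgcr8 encodes the Drosha partner needed to make canonical microRNAs. There were 6 libraries in 3 groups of 2. The miR-294 group was transfected with a miR-294 mimic and the siMbd2 group with an siRNA against Mbd2, each at 50 nM with DharmaFECT1. The CTR group is a control that the table calls mock, and the labels do not state what it received. In comparisons with CTR, the delivery of a mimic or siRNA and its sequence therefore cannot be told apart. RNA was collected at 48 h. The labels name neither the number of cell clones nor whether the replicates were separate cultures, so the p-values below measure the spread between these libraries, which may be technical.

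Interferons are secreted proteins that warn cells of infection. RNA sensors such as the helicase encoded by Ddx58 (RIG-I) detect foreign RNA and set off interferon production. Interferon receptors then act through JAK kinases to bring STAT2 and IRF9 into a transcription factor complex, ISGF3, which binds the interferon-stimulated response element (ISRE) in the promoters of its target genes. Pluripotent stem cells are known to respond weakly to interferon while expressing some of these targets constitutively.

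The labels do not say which arm of miR-294 the mimic carries. The arm with the seed that defines the family is miR-294-3p, encoded on mouse chromosome 7 (chr7:3220691-3220712, plus strand, GRCm38.p6). Its RefSeq sequence is shown with the seed, bases 2 to 8, in capitals, because sites for it were sought in the 9 genes.
miR-294-3p: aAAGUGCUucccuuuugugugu
For every gene, the longest 3' UTR among its protein-coding transcripts, as annotated in GENCODE vM21 on GRCm38, was searched for perfect matches. A match of 8 bases reads AGCACTTA. Those of 7 bases read AGCACTT or GCACTTA and were counted where the longer one was absent. Oasl2, Irf9 and Stat2 held a match, and Ddx58, Ifi35, Isg15, Oasl1, Ifitm3 and Cxcl10 held none. Of 10803 tested genes with such a UTR, 3.69% held the 8-base match and 20.9% held a match of any class. The sites are printed with the match in capitals so that they can be set beside the expression values. Oasl2 holds the 8-base match at chr5:114911522-114911529, Irf9 holds AGCACTT at chr14:55609205-55609211 and at chr14:55609378-55609384, and Stat2 holds AGCACTT at chr10:128292124-128292130, all on the plus strand.
Oasl2: cctttatctcAGCACTTAgagaattt
Irf9, upstream site: ttgtaatctcAGCACTTggaagaca
Irf9, downstream site: tctaaatctaAGCACTTtatatatt
Stat2: atggtttctgAGCACTTgggaatta

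The promoters were searched because the members are described as ISGF3 targets. RefSeq gave a window of 300 bases (GRCm38.p6) for each gene, reaching 250 bases before the annotated start, and a second window for Irf9. On both strands, the ISRE core GAAANNGAAA was found in Ddx58, Stat2, Isg15, Ifitm3 and Cxcl10, that is in 5 of the 9 genes, and in 3.44% of 32851 mouse promoter windows. The related pattern with 1 spacer base, GAAANGAAA, was found in 4 of the 9 genes (Ddx58, Stat2, Ifi35 and Isg15) and in 3.17% of windows. The GAS core TTCNNNGAA, the pattern bound by STAT dimers, was found in Ifi35 and Ifitm3 and in 8.30% of windows. It overlapped another match in both, and the pair of patterns overlapped in Stat2. None of the 3 patterns was found in the windows of Oasl1, Oasl2 or Irf9, which says only that these letters are not in those windows. Isg15 and Cxcl10 are shown in full, chosen with their values known, since they were the ISRE-bearing genes that moved in opposite directions with the treatments. The capitals mark an ISRE core, which begins 72 bases before the start of Isg15, where cores at 78 and 66 bases overlap it, and 213 bases before the start of Cxcl10. The Isg15 window is chr4:156200769-156201068 and the Cxcl10 window is chr5:92348840-92349139, both on the minus strand.
Isg15 promoter: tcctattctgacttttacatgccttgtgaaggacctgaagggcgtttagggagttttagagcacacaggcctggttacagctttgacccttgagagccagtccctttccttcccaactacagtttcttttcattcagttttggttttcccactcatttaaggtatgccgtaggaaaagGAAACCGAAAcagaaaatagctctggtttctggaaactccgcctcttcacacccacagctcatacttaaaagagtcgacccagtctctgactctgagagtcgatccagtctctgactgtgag
Cxcl10 promoter: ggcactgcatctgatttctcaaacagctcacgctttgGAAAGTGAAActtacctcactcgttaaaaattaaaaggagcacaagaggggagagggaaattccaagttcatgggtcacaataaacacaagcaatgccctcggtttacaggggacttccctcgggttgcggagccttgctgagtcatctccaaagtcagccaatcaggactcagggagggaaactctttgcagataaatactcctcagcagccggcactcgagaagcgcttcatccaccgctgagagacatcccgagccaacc
A core each of Ifitm3, Ddx58 and Stat2 is shown with 20 bases on each side, to compare the match itself. Ifitm3 has another, which begins 2 bases after the start and lies in lower case in the printed left flank. Those of Ifitm3 (chr7:141010696-141010745, minus strand) and Ddx58 (chr4:40239794-40239843, minus strand) lie after the annotated gene start, and that of Stat2 (chr10:128270256-128270305, plus strand) begins 222 bases before it. In Ddx58 and Stat2 the pattern lies on the opposite strand and reads as its reverse complement.
Ifitm3: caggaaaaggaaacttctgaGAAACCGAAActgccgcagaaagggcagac
Ddx58: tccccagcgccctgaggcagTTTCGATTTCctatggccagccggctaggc
Stat2: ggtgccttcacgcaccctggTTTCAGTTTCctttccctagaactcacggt

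**Figure D1:**
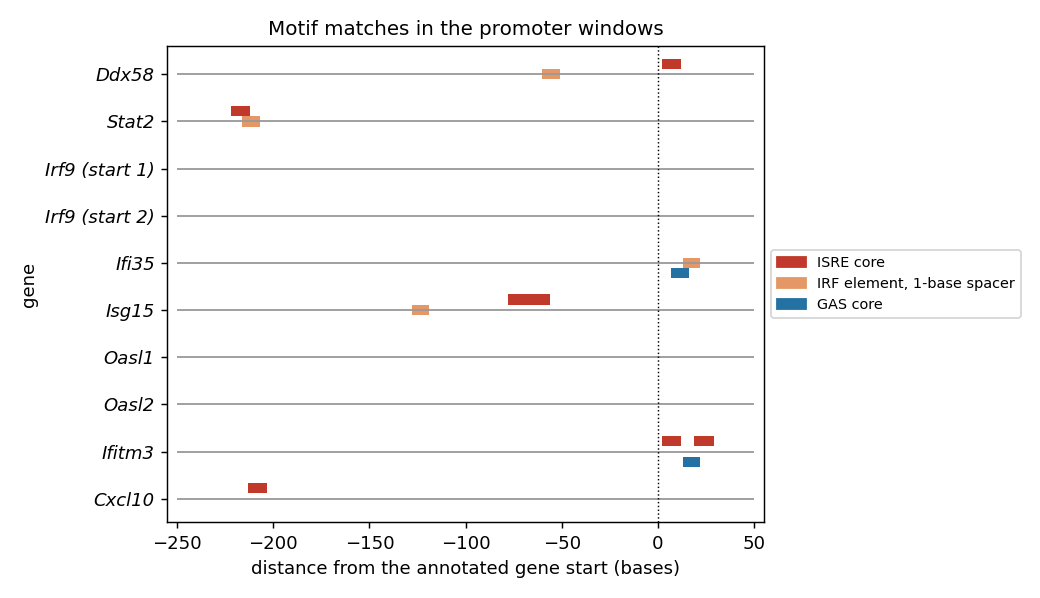
Positions of the motif matches (coloured blocks) along each promoter window, in bases from the annotated gene start (dotted line at 0). Ddx58, Stat2, Isg15, Ifitm3 and Cxcl10 carry the ISRE core, while Oasl1, Oasl2 and both Irf9 windows carry no block.

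Values are RPKM, mapped reads scaled by transcript length and by the total of the library, and read depth is unknown. The RPKM values of a library summed to between 429460 and 493079 over all entries, and the median absolute log2 difference between replicates was 0.063 in miR-294, 0.060 in siMbd2 and 0.136 in CTR. Mbd2, the target of the siRNA, stood at 11.3 and 12.3 RPKM in miR-294, 7.33 and 6.34 in siMbd2, and 26.8 and 27.9 in CTR. Dgcr8 stood at 6.66 and 7.14 RPKM in miR-294, 7.24 and 7.34 in siMbd2, and 7.49 and 8.44 in CTR; a value for the whole gene does not show whether the deleted part is absent. The 6 ESC markers summed to 2451 and 2454 RPKM in miR-294, 2284 and 2271 in siMbd2, and 2181 and 2139 in CTR. The single markers differed in direction, as Pou5f1 averaged 1058 RPKM in miR-294, 930.0 in siMbd2 and 740 in CTR, and Nanog 208 in miR-294, 288 in siMbd2 and 363 in CTR. Of 8 feeder fibroblast markers, Col1a1 and Thy1 were measured, with summed levels of 3.89 and 3.56 RPKM in miR-294, 1.15 and 1.32 in siMbd2, and 1.64 and 1.53 in CTR. The endothelial markers Kdr and Tek summed to 2.77 and 2.69 RPKM in miR-294, 2.60 and 2.13 in siMbd2, and 4.69 and 4.80 in CTR, and 5 primitive endoderm markers to 3.23 and 3.13 in miR-294, 2.67 and 2.39 in siMbd2, and 3.49 and 3.04 in CTR. Within the last list Sox7 averaged 1.22 RPKM in miR-294, 0.26 in siMbd2 and 0.15 in CTR, and Gata4 averaged 0.94 in miR-294, 1.95 in siMbd2 and 2.77 in CTR. Of 8 leukocyte marker symbols, of which Emr1 and Adgre1 name the same gene, Cd68 and Cd14 were measured. They summed to 15.8 and 14.7 RPKM in miR-294, 21.0 and 19.0 in siMbd2, and 18.7 and 15.6 in CTR. The part of other cells in the results below was not tested, and in bulk RNA fewer cells that express a gene and less RNA per cell cannot be told apart.

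With miR-294, 7 of the 9 interferon response genes fell against CTR and 1, Ddx58, rose. With siMbd2, Isg15, Cxcl10 and Ddx58 rose, Oasl1 and Oasl2 fell, and the other 4 genes were not called. A gene was called, and is said to have risen or fallen, where limma on log2(RPKM + 1) gave a Benjamini-Hochberg adjusted p under 0.05 over 11428 tested genes. All 9 members passed the filter of a mean of 1 RPKM over the 6 libraries, although Isg15, with 0.41 RPKM, lay below 1 RPKM in the miR-294 group. Calls were common in these data. In miR-294 vs CTR 36.8% of all tested genes fell and 27.7% rose, so the members' 7 and 1 are to be read against those shares. In siMbd2 vs CTR 19.5% rose and 14.9% fell, beside 3 and 2 of the 9 members. The change was at least 1 on the log2 scale downward for 7 of 9 members with miR-294, against 5.39% of all tested genes. The members were chosen with earlier results of these data known, so setting them beside all tested genes is a description and no test. The median log2 change of the members was -1.24 with miR-294 and 0.09 with siMbd2, beside -0.08 and 0.02 for all tested genes. Both comparisons use the same CTR libraries.

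**Figure D2:**
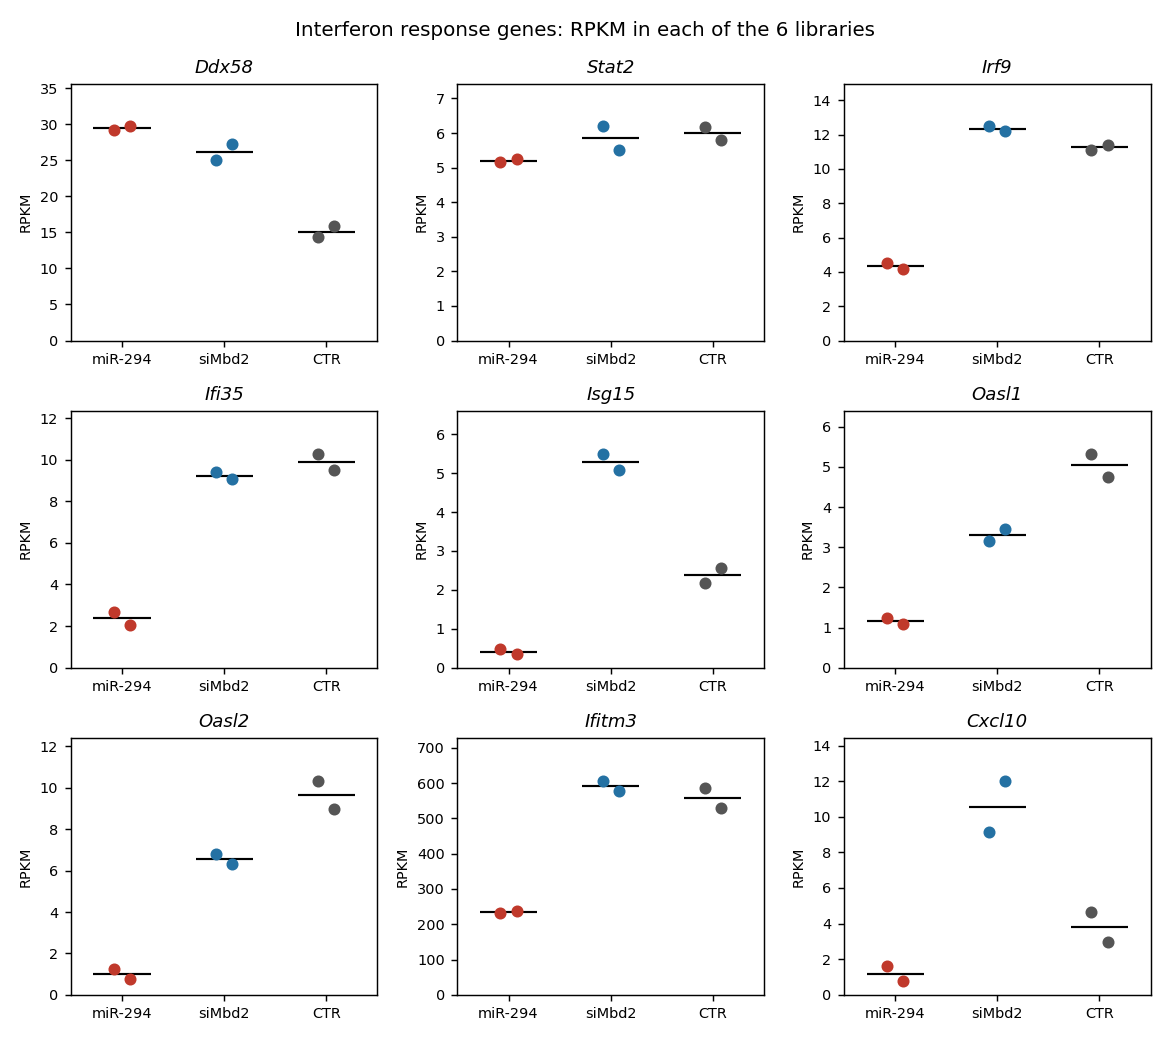
RPKM of each of the 9 genes in the 6 libraries (points) with the group mean (line), on axes that start at 0 and differ between genes. Isg15 and Cxcl10 are lowest in miR-294 and highest in siMbd2, while Ddx58 is lowest in CTR.

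Ddx58, the RNA sensor, was the only member that rose with both treatments. It had 29.1 and 29.7 RPKM in miR-294, 25.1 and 27.3 in siMbd2, and 14.3 and 15.9 in CTR. Every treated library lay above both CTR libraries. The mean was 1.95-fold that of CTR with miR-294 (log2 change 0.92, SE 0.08, limma adjusted p = 1.94e-05) and 1.73-fold with siMbd2 (log2 change 0.76, adjusted p = 4.70e-04). Between the treatments the log2 difference, miR-294 minus siMbd2, was 0.16, with a 95% interval of -0.01 to 0.33 (adjusted p = 0.0979). This difference was called with median-of-ratios scaling (0.24, adjusted p = 0.0346) and with quantile normalization (0.23, adjusted p = 0.0497). It was also called, at 0.16, from the libraries of both treatments alone (adjusted p = 0.0261), without CTR replicate 1 (0.0279) and without CTR replicate 2 (0.0286).

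The 2 members that encode parts of ISGF3 behaved differently. Irf9, which gives the complex its DNA contact, had 4.49 and 4.18 RPKM in miR-294, 12.5 and 12.2 in siMbd2, and 11.1 and 11.4 in CTR. Both miR-294 libraries lay far below the other 4, and the siMbd2 libraries lay above CTR by less than the test could call. Irf9 fell to 38.5% of the CTR mean with miR-294 (log2 change -1.20, SE 0.08, adjusted p = 6.75e-06), and its change with siMbd2 was 0.12 (adjusted p = 0.252). Stat2 had 5.15 and 5.24 RPKM in miR-294, 6.19 and 5.51 in siMbd2, and 6.18 and 5.81 in CTR. The miR-294 libraries were the lowest of the 6, while siMbd2 and CTR overlapped. Its log2 change was -0.17 with miR-294, with a 95% interval of -0.38 to 0.03 (adjusted p = 0.113), and -0.03 with siMbd2, with an interval of -0.23 to 0.17 (adjusted p = 0.810). The sign of these small values was not stable. With quantile normalization the change with miR-294 was 0.053, and with siMbd2 it was 0.040 without siMbd2 replicate 2 and 0.0067 without CTR replicate 1. Both genes carry the 7-base seed match shown above. Of 50-base stretches of the Irf9 transcript, 2.78% also occur in other annotated genes, mostly the neighbouring Rnf31.

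Oasl1 and Oasl2 lie side by side on chromosome 5 (chr5:114923240-114937915 and chr5:114896936-114912234, plus strand) and encode relatives of 2'-5' oligoadenylate synthetases; no 50-base stretch of either transcript occurs in another annotated gene. Oasl2 had 1.24 and 0.77 RPKM in miR-294, 6.82 and 6.32 in siMbd2, and 10.3 and 9.0 in CTR. Oasl1 had 1.24 and 1.08 RPKM in miR-294, 3.16 and 3.45 in siMbd2, and 5.33 and 4.76 in CTR. In both genes the 3 groups did not overlap and followed the same order, with CTR highest and miR-294 lowest. Oasl2 was 9.62-fold lower in mean RPKM with miR-294 than in CTR (log2 change -2.42, SE 0.13, adjusted p = 2.98e-06), the 12th lowest log2 change of all tested genes. Oasl1 was 4.35-fold lower (log2 change -1.48, SE 0.10, adjusted p = 7.09e-06). With siMbd2 Oasl1 fell by 0.49 on the log2 scale (adjusted p = 0.00632) and Oasl2 also by 0.49 (adjusted p = 0.0180). With 1 library left out, the log2 change of Oasl1 lay between -0.56 and -0.42 and that of Oasl2 between -0.58 and -0.40, while the call was lost in some cases. Oasl1 had adjusted p = 0.0558 without siMbd2 replicate 1, and Oasl2 had 0.0642 without siMbd2 replicate 1, 0.119 without siMbd2 replicate 2 and 0.0555 without CTR replicate 1. For Oasl2 a pseudocount of 0.1 RPKM gave 0.0567. Oasl2 carries the 8-base seed match and Oasl1 none.

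Isg15 encodes a ubiquitin-like protein that is attached to other proteins in the antiviral state. It had 0.47 and 0.35 RPKM in miR-294, 5.50 and 5.07 in siMbd2, and 2.17 and 2.57 in CTR. The 3 groups did not overlap, and the 2 treatments lay on opposite sides of CTR. It fell with miR-294 to a mean 5.78-fold below CTR (log2 change -1.26, SE 0.10, adjusted p = 1.83e-05) and rose 2.23-fold with siMbd2 (log2 change 0.90, adjusted p = 7.65e-04). At such low RPKM the pseudocount of 1 shrinks the log2 change, which for miR-294 was -2.28 with a pseudocount of 0.1. Of its 50-base stretches, 3.96% also occur in another annotated gene.

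Cxcl10 encodes a secreted chemokine that attracts activated T cells, and it is the only chemokine gene among the 9. It had 1.61 and 0.77 RPKM in miR-294, 9.13 and 12.02 in siMbd2, and 4.63 and 2.96 in CTR. As for Isg15, miR-294 lay below CTR and siMbd2 above it, with no overlap. The replicates of Cxcl10 spread more than those of the other members, and its SE of 0.22 was the largest of the 9. It fell with miR-294 (log2 change -1.14, adjusted p = 0.00200) and rose with siMbd2 2.79-fold in mean RPKM (log2 change 1.28, adjusted p = 0.00358), the 15th highest log2 change of all tested genes in that comparison.

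Ifi35 and Ifitm3 fell with miR-294 and were not called with siMbd2. Ifi35 encodes an interferon-induced leucine zipper protein, partner of NMI, and had 2.70 and 2.06 RPKM in miR-294, 9.39 and 9.05 in siMbd2, and 10.3 and 9.52 in CTR. The miR-294 libraries stood apart from the other 4, a 4.16-fold lower mean than in CTR (log2 change -1.70, SE 0.11, adjusted p = 5.94e-06). With siMbd2 the log2 change was -0.09, with a 95% interval of -0.34 to 0.15 (adjusted p = 0.528). Ifitm3, a membrane protein gene that blocks entry of viruses and is expressed in pluripotent cells, had 233 and 236 RPKM in miR-294, 606 and 578 in siMbd2, and 586 and 529 in CTR. The siMbd2 and CTR ranges overlapped, and both miR-294 libraries lay far below them. It fell with miR-294 to 42.0% of the CTR mean (log2 change -1.24, SE 0.06, adjusted p = 2.88e-06). Its log2 change with siMbd2 was 0.09 (adjusted p = 0.320), -0.014 with quantile normalization, and 0.16 without CTR replicate 1 (adjusted p = 0.0174). Of the 50-base stretches of Ifitm3, 10.02% also occur in Ifitm2 or other annotated genes, so its level is uncertain to the extent that reads could be divided between them.

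The direct comparison sets miR-294 against siMbd2, with CTR entering through the shared estimate of spread and the filter over all 6 libraries. In it 7 of the 9 members were lower with miR-294 and 2, Ddx58 and Stat2, were not called, where 35.5% of all tested genes were lower and 21.9% higher. No member was higher by limma, with or without adjustment at 0.05. Cxcl10 had the 4th lowest and Isg15 the 12th lowest log2 change of all tested genes. The log2 difference was -2.42 for Cxcl10 (adjusted p = 5.20e-05) and -2.16 for Isg15 (adjusted p = 4.17e-06), each larger than against CTR. For Oasl1 (-0.995, adjusted p = 7.07e-05) and Oasl2 (-1.93, adjusted p = 1.13e-05) it was smaller than against CTR. Irf9 (-1.32), Ifi35 (-1.60) and Ifitm3 (-1.33) had differences close to those against CTR. With the deposited scaling 2500 of all tested genes were higher and 4061 lower in this comparison, and with quantile normalization 3291 and 3100. The 7 members were called lower under both.

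**Figure D3:**
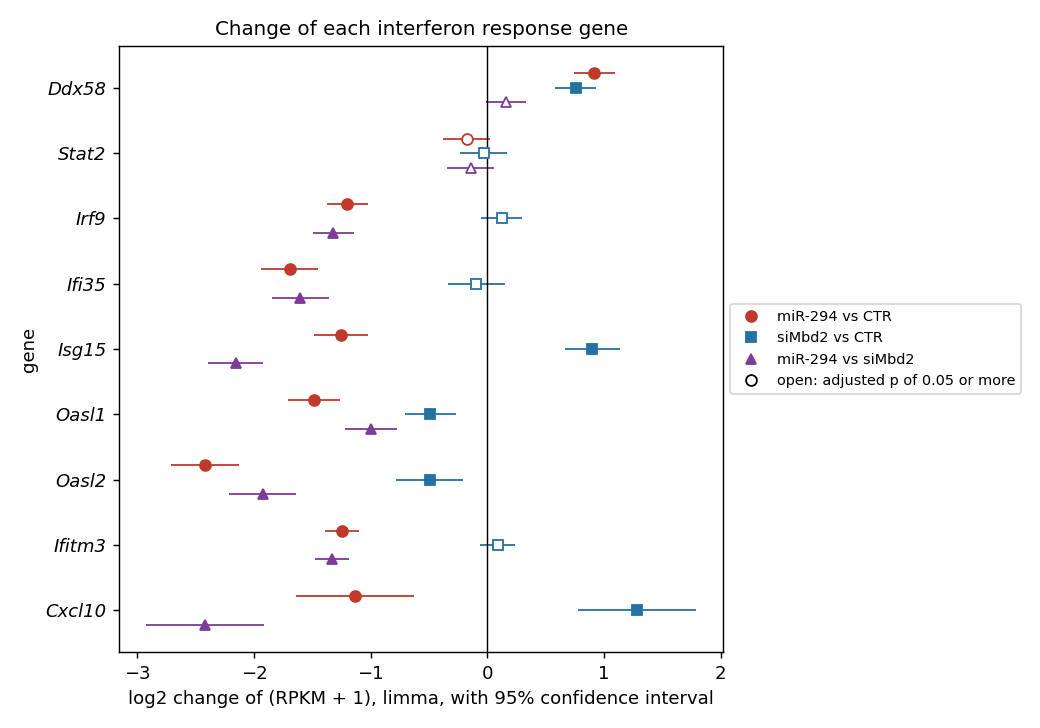
Log2 change of each gene in the 3 comparisons (symbols) with the limma 95% confidence interval (bars), where open symbols mark an adjusted p of 0.05 or more. Isg15 and Cxcl10 have siMbd2 values above 0 and miR-294 values below 0, and Ddx58 lies above 0 in both comparisons with CTR.

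The members spanned a wide range of levels on the RPKM scale, which is per transcript length. In CTR Ifitm3 was highest at a mean of 558 RPKM, above 99.1% of all entries. It was followed by Ddx58 (15.1), Irf9 (11.3), Ifi35 (9.91), Oasl2 (9.67), Stat2 (6.00), Oasl1 (5.05), Cxcl10 (3.80) and Isg15 (2.37). Of these neighbours, only Ifi35 and Oasl2 overlapped between libraries. In miR-294 the order below Ifitm3 and Ddx58 changed, with Stat2 (5.20) next, then Irf9 (4.34) and Ifi35 (2.38), then Cxcl10, Oasl1 and Oasl2 between 1.19 and 1.01 with overlapping libraries, and Isg15 (0.41) last. In siMbd2 Cxcl10 (10.6) stood next to Ifi35 (9.22), with overlapping libraries, and Oasl1 (3.31) was last.

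Other genes of the pathway were taken from 5 lists of 131 symbols, also chosen with earlier results of these data known. The 19 interferon genes themselves were not analysed here. Of the other lists 85 genes had values and 71 were tested. In miR-294 vs CTR 46 of the 71 fell and 8 rose (median -0.52 on the log2 scale). That is 64.8% lower and 11.3% higher, beside 36.8% and 27.7% of all tested genes. In siMbd2 vs CTR 11 rose and 13 fell (median -0.05), that is 15.5% and 18.3%, near the 19.5% and 14.9% of all tested genes. These counts moved when single libraries were left out. The 8 became 5 without miR-294 replicate 1 and 4 without miR-294 replicate 2. With siMbd2, 4 rose and 4 fell without its replicate 1, 3 rose and 1 fell without its replicate 2, 19 rose without CTR replicate 1, and 8 fell without miR-294 replicate 1 and 8 without miR-294 replicate 2. The 14 genes that had values but were not tested are described by values only. With siMbd2, both libraries lay below both CTR libraries for Ddx60, Herc6, Uba7, Cmpk2, Gbp3 and Rsad2. They lay above for Isg20, Ifi27, Ccl5 and Nlrx1, and overlapped with CTR for Ifit1, Irf7, Dhx58 and Lgals3bp. Both miR-294 libraries lay below CTR for all 14 except Isg20, which overlapped, and Nlrx1, which lay above. RPKM is printed for Ifit1 and Isg20. Ifit1 had 0.09 and 0.10 RPKM in miR-294, 0.47 and 0.56 in siMbd2, and 0.53 and 0.59 in CTR. Isg20 went another way, with 0.37 and 0.52 RPKM in miR-294, 1.90 and 2.09 in siMbd2, and 0.37 and 0.30 in CTR.

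Among receptors, kinases and transducers, 11 of 15 tested genes fell and 1 rose with miR-294 (73.3% and 6.67%, beside 36.8% and 27.7% of all tested genes). Irf2 and Irf1, transcription factors of the same family as Irf9, fell by 1.98 and by 1.42 on the log2 scale. Irf2 had 0.43 and 0.37 RPKM in miR-294, 4.53 and 4.34 in siMbd2, and 4.24 and 4.79 in CTR, so that miR-294 stood alone. The limma SEs of the pathway genes named here by size of change lay between 0.06 and 0.12. Jak2, which encodes a JAK kinase, fell by 1.36, and Ifngr2, a subunit of the receptor for interferon gamma, fell by 0.97. With siMbd2, 2 rose and 1 fell, 13.3% and 6.67% of the list, beside the larger 19.5% and 14.9% of all tested genes. Ifngr2 (log2 change 0.46) and Ifnar1 (0.29), which encodes a subunit of the type I interferon receptor, rose and Jak2 fell by 0.29.

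Among nucleic acid sensors and adaptors, 7 of 13 tested genes fell with miR-294 and none rose by limma, with or without adjustment at 0.05, while Ddx58 itself rose. The 7 are 53.8% of the list, beside 36.8% of all tested genes. Zbp1, a sensor of left-handed nucleic acids, fell by 2.47 on the log2 scale, with 2.26 and 1.88 RPKM in miR-294, 8.19 and 9.29 in siMbd2, and 17.2 and 15.0 in CTR. Its 3 groups did not overlap. Mb21d1, which encodes the DNA sensor cGAS, fell by 1.42. Eif2ak2, the double-stranded RNA kinase PKR, fell by 1.06 and Tmem173, the adaptor STING, fell by 0.69. With siMbd2 3 rose and 1 fell, 23.1% and 7.69% of the list, beside 19.5% and 14.9% of all tested genes. Ikbke, a kinase of interferon regulatory factors, rose by 0.97 on the log2 scale, with 3.22 and 4.07 RPKM in siMbd2 and 1.40 and 1.33 in CTR. Traf3 and Myd88, adaptors of innate signalling, rose by 0.44 each, and Zbp1 fell by 0.81.

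Among other interferon-stimulated genes, 22 of 28 tested genes fell and 4 rose in miR-294 vs CTR (median -0.79 on the log2 scale), 78.6% and 14.3% beside 36.8% and 27.7% of all tested genes. Ifitm1, a relative of Ifitm3, fell by 2.09 on the log2 scale, with 176 and 181 RPKM in miR-294, 581 and 508 in siMbd2, and 877 and 661 in CTR. Nmi, the partner of IFI35, fell by 1.83, Gbp2, a guanylate-binding protein gene, by 1.77, and Xaf1 by 1.74. The 4 that rose were Sp110 (log2 change 0.62), Oas1a (0.34), Pml (0.21) and Daxx (0.19). With siMbd2 3 rose and 9 fell, 10.7% and 32.1% beside 19.5% and 14.9% of all tested genes. Oas3 fell by 0.49, Ifitm1 by 0.49, Oas1c by 0.47 and Samhd1, which encodes a nucleotide hydrolase, by 0.37. The 3 that rose with siMbd2 were Oas1a (log2 change 0.33), Znfx1 (0.32) and Daxx (0.29). Oas1a and Daxx thus rose with both treatments. Genes of the Oas and Ifitm clusters share sequence, so reads between relatives could be divided in ways that are not known.

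Among negative regulators, 6 of 15 tested genes fell and 3 rose with miR-294, shares of 40% and 20% beside 36.8% and 27.7% of all tested genes. Socs1, an inhibitor of JAK kinases, fell by 0.90 on the log2 scale, and the log2 changes of Pias1, Cish and Pias3 were -0.52, -0.52 and -0.42. The 3 that rose were Ptpn11 (log2 change 0.42), Otud5 (0.39) and Pias2 (0.28). With siMbd2 3 rose and 2 fell, 20% and 13.3%, near the shares of all tested genes. Trex1, a DNA exonuclease that limits sensing of self DNA, rose by 0.60, Pias4 by 0.46 and Otud5 by 0.31, and Pias1 fell by 0.27. In the direct comparison 51 of the 71 tested pathway genes were lower with miR-294 and 4 higher, 71.8% and 5.63% beside 35.5% and 21.9% of all tested genes. Lower among receptors, kinases and transducers were Irf2 (log2 difference -1.96), Ifngr2 (-1.43), Irf1 (-1.25) and Jak2 (-1.07). Among sensors and adaptors they were Zbp1 (-1.67), Ikbke (-1.44), Mb21d1 (-1.14) and Eif2ak2 (-0.93). Gbp2 (-1.78), Nmi (-1.70), Ifitm1 (-1.60) and Xaf1 (-1.55) were lower among other interferon-stimulated genes. Socs1 (-1.03), Trex1 (-0.85), Pias3 (-0.69) and Pias4 (-0.39) were lower among negative regulators. The 4 that were higher were Sp110 (0.94), Pml (0.25), Ptpn11 (0.24) and Pias2 (0.18). The 4 became 1 or 2 without 1 library of either treatment.

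**Figure D4:**
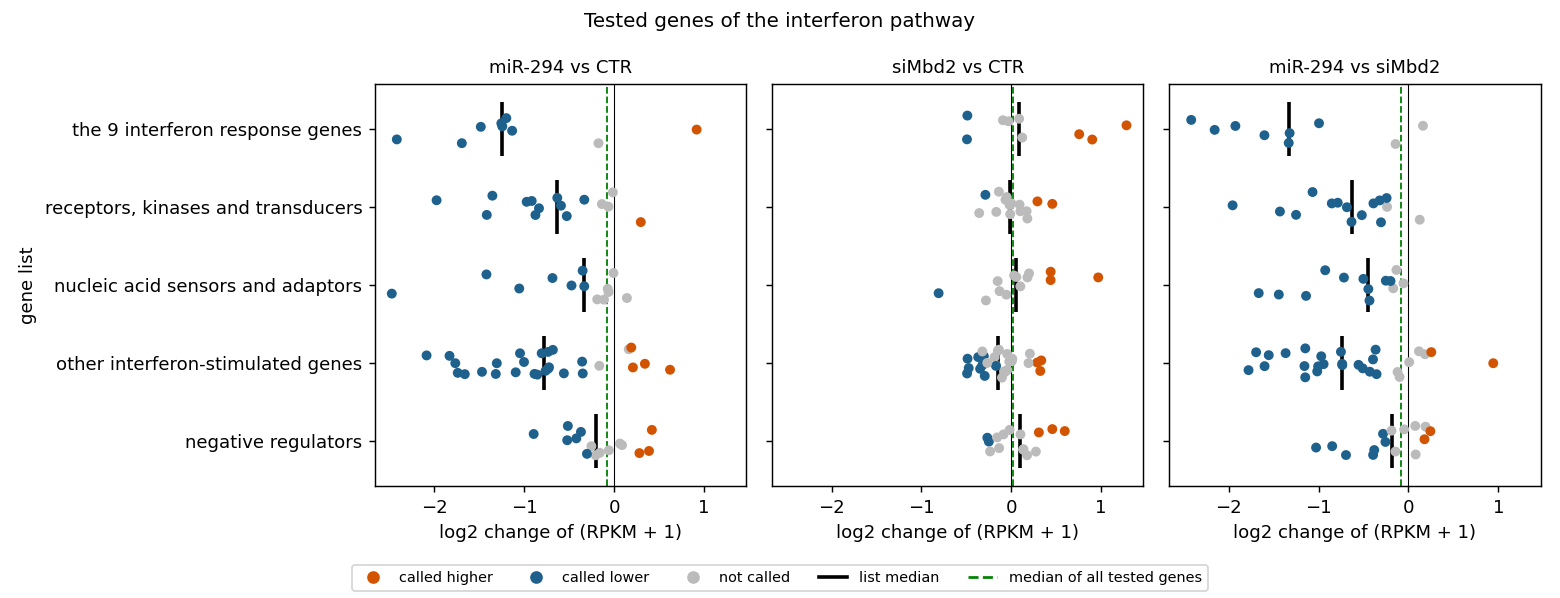
Log2 change of each tested gene of the members and of 4 lists in the 3 comparisons, coloured by call, with the list median (black bar) and the median of all tested genes (dashed line). In both comparisons of miR-294 the list medians lie left of the dashed line. With siMbd2 the median of the other interferon-stimulated genes also lies left of it (-0.14 beside 0.02), and the other medians lie near it.

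The pattern over the 6 libraries was not the same in all members. Pearson's r of log2(RPKM + 1) between a member and the mean of the other 8 was 0.99 for Irf9, Ifitm3 also 0.99, 0.97 for Ifi35, 0.94 for Isg15, 0.90 for Oasl2, 0.87 for Cxcl10, 0.85 for Oasl1, 0.80 for Stat2 and -0.56 for Ddx58. These are descriptions over 6 libraries that share 3 treatments. By the same measure, the genes outside the list most like the members' mean profile, among 8391 with a mean of at least 5 RPKM, were Atn1, S100a11, Nid1, Golm1 and Tor1b. S100a11 had 130 and 123 RPKM in miR-294, 266 and 263 in siMbd2, and 234 and 225 in CTR.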

How the data were processed

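RPKM was measured by paired-end Illumina sequencing of total RNA in 6 libraries. Per the file headers, the authors deposited 1 RPKM value per gene and library to 2 decimals, and a ratio (fold) of each treatment over mock. For the 9 members, fold values recomputed here lay within 0.00656 of those in the authors' deposited table. The submitters' processing notes name CASAVA 1.7, STAR 2.3.0, Cufflinks and mm10 without their roles, and the labels describe each sample as an average of a pair of lanes. Neither the annotation nor the strand setting is given in the sources used here. Read counts are not part of RPKM, so depth is unknown and no counting interval can be given. RPKM is relative within a library, so a change in total RNA is not seen.

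Values were analysed as log2(RPKM + 1), which understates changes of low genes. The 11428 genes whose 6-library mean reached 1 RPKM were tested with limma 3.58.1 (R 4.3.3) in 1 model with 3 groups, an intensity trend, 3 residual and 5.38 prior degrees of freedom, tested on simulated data, with Benjamini-Hochberg adjustment over all tested genes of a comparison and two-sided tests. For 2 libraries against 2, exact permutation cannot give a p under 0.333. Values after SE are limma standard errors with n = 2 per group. Python 3.11.15 was used for sequence searches, and figures were drawn with matplotlib 3.10.9. The members and lists were chosen with earlier results of these data known, and the searches for seed matches and for shared 50-base stretches were added after the values were seen. All 9 members are named. From each list and comparison up to 4 called genes with the largest absolute log2 change are named. Named too are the non-members most like the members' mean profile. The 14 untested pathway genes and the 4 interferon-stimulated genes and 3 negative regulators that rose with miR-294 were added after their values were seen. So were the 3 interferon-stimulated genes that rose with siMbd2 and the 4 pathway genes that were higher in the direct comparison. Alternatives changed the pseudocount, filter, scaling, trend, libraries and replicate block.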

Additional observations from a re-analysis of the deposited data

How the results depend on the processing

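With 2 libraries a group, every call rests on the spread shared over groups and genes by limma, and depth is unknown. The 7 falls and 1 rise of members with miR-294 against CTR kept their calls in every alternative in which they were tested; with a mean of at least 5 RPKM, Isg15 and Oasl1 were not tested. Of the alternative values for single members, 356 kept direction and side of the threshold, 5 lost the call, 6 gained it and 5 changed sign, all 5 of them uncalled in both fits. With quantile normalization Stat2 was at 0.053 in miR-294 vs CTR and 0.061 in miR-294 vs siMbd2, and Ifitm3 at -0.014 in siMbd2 vs CTR. In siMbd2 vs CTR Stat2 lay between -0.103 and 0.040 when 1 library was left out, with a changed sign without siMbd2 replicate 2 and without CTR replicate 1 (0.0067). The losses were all Oasl1 or Oasl2 with siMbd2, and the gains were Ddx58 in miR-294 vs siMbd2 (5) and Ifitm3 with siMbd2 (1). Members called lower with siMbd2 numbered 1 with a pseudocount of 0.1 RPKM, 1 with a mean of at least 5 RPKM, and 0 to 2 when 1 library was left out. Members called higher in miR-294 vs siMbd2 numbered 1 with median-of-ratios scaling, 1 with quantile normalization, 1 with only the 2 groups compared, and 0 to 1 when 1 library was left out.

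For the pathway lists, a mean of at least 5 RPKM left 44 genes, of which 5 rose and 25 fell with miR-294, 6 rose with siMbd2, and 29 were lower with miR-294 than with siMbd2. With only the 2 groups compared 8 fell with siMbd2. When 1 library was left out, 4 to 9 rose with miR-294, 3 to 19 rose and 1 to 17 fell with siMbd2, and 1 to 5 were higher in miR-294 vs siMbd2. The causes were not tested beyond the fewer genes or libraries these settings use.

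Quantile normalization moved the median of all tested genes by 0.10 (log2) in miR-294 vs CTR and by 0.11 in miR-294 vs siMbd2. Replicate numbers are shared between groups in the labels, but nothing says that they mark a shared culture or day. Deviations of replicate 1 from its group mean correlated at 0.02 (miR-294 and siMbd2), 0.12 (miR-294 and CTR) and 0.13 (siMbd2 and CTR) across genes. A replicate block left the members' counts at 1 higher and 7 lower, 3 higher and 2 lower, and 0 higher and 7 lower, and the pathway counts with siMbd2 at 11 and 13.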
